A study of Homo sapiens with 10 samples.

Results

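The zinc finger genes of human chromosome 19 were followed through a hepatic differentiation of H1 cells, a line of human embryonic stem cells (hESCs). A gene was taken as a member where its symbol consists of ZNF and a number, with at most 1 closing letter, and where the table places it on chromosome 19. Of the 12125 genes measured, 159 met both conditions, out of 358 genes with a symbol of this form on any chromosome and 777 genes on chromosome 19. The rule itself rests on symbol and position, but it was set with earlier results of these data known.

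RNA-seq had been performed on 1 library for each of 10 days of a stepwise, serum-free culture on a single cell line. Day 0 was undifferentiated H1 cells on Matrigel in mTeSR1 medium without any added inducer, days 1, 2 and 3 were under Activin A, days 5 and 7 under FGF4 and BMP2, and days 9 and 11 under HGF and KGF. Days 13 and 21 carry the label Oncostatin M (OSM), although the step lengths of the culture protocol make day 13 the last day of HGF and KGF. With 1 library a day there is no replicate error and no test, and nothing tells whether the days came from more than 1 culture, so every difference given is a description of these libraries.

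Most of these genes encode C2H2 zinc finger proteins, in which each finger holds a zinc ion and contacts a few bases of DNA. Many also carry a KRAB domain, which binds the co-repressor TRIM28 and through it brings the histone methyltransferase SETDB1 and HP1 proteins to chromatin. The genes arose by repeated tandem duplication and lie in clusters of similar copies on chromosome 19, and many of their proteins bind retroelements, which they help to silence in pluripotent cells.

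The promoters of neighbouring members were themselves related in sequence. RefSeq promoters on GRCh38.p14, from 250 bases before to 50 bases after the gene start, were at hand for 140 of the 159 members. Local alignment joined 34 of them into 4 families of at least 3 promoters, of which the largest held 18 members from ZNF93 to ZNF254 and the next 10 members from ZNF808 to ZNF813. The families and their shared words were sought after the expression values had been seen. Sequences of 3 members of each of these families are shown because the families lie in stretches of the chromosome whose course over the days differed. Each family holds 1 member with all values of days 9 to 21 above those of days 0 to 3, ZNF91 or ZNF83. Capitals mark the 12-letter word found in the most promoters of the family. It was chosen for that, so its high share there is no test of enrichment. The counts over all promoters include those of the family. In the first family the word CTGTCACTCAGG occurred on either strand in 13 of 18 promoters (72.2%), against 38 of 35116 promoters of all genes (0.108%).
ZNF93: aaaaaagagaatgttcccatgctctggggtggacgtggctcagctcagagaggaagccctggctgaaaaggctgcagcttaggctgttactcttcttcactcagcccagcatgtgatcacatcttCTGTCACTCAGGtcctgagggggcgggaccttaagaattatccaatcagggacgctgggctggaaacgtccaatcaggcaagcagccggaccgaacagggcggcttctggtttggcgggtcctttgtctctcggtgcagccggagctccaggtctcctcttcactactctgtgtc
ZNF714: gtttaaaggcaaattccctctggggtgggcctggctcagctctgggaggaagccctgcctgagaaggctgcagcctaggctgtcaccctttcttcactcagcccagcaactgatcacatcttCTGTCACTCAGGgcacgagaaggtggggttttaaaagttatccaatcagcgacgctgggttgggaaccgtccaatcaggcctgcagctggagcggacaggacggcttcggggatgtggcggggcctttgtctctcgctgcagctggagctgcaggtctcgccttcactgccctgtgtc
ZNF91: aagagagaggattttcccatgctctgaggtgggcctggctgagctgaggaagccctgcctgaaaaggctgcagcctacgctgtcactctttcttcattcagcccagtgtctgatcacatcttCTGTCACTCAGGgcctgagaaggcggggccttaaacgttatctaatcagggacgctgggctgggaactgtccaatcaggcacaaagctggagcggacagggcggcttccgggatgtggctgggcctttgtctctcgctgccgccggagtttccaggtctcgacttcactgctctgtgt
These windows are chr19:19900696-19900995 on the plus strand for ZNF93, chr19:21081953-21082252 on the plus strand for ZNF714 and chr19:23395422-23395721 on the minus strand for ZNF91, and the word began 125, 128 and 128 bases before the gene start. In the second family the word ATTCCAGGGCTT occurred in 8 of 10 promoters (80.0%), against 13 of 35116 (0.037%).
ZNF761: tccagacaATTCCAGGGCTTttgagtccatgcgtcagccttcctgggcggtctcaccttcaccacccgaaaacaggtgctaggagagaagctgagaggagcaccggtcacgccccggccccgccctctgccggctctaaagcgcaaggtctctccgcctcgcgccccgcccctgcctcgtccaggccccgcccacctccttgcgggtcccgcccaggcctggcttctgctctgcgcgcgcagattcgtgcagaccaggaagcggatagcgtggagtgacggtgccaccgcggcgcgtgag
ZNF765: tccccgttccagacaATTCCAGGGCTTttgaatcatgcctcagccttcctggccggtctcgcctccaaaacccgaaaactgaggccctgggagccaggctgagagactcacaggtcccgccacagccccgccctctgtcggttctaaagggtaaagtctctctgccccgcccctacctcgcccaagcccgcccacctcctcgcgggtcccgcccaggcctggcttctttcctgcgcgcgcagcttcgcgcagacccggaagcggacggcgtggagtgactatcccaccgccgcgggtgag
ZNF83: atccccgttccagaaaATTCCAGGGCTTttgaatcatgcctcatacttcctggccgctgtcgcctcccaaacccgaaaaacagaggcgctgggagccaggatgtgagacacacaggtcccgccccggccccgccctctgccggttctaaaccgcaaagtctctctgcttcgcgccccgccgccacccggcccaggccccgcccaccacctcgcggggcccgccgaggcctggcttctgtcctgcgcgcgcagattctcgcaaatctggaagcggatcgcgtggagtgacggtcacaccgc
These windows are chr19:53431734-53432033 on the plus strand for ZNF761, chr19:53394899-53395198 on the plus strand for ZNF765 and chr19:52690447-52690746 on the minus strand for ZNF83, and the word began 242, 235 and 234 bases before the gene start. The families also differed in CG dinucleotides, with 8 to 16 per promoter in the first and 21 to 30 in the second, against medians of 21 over the members and 14 over all promoters. A shared word is a description of related sequence and not a binding site.

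The values are whole-number scores that had been normalized for GC content and brought to nearly the same distribution in each library, so the median over all genes was 82.0 on 9 days and 81.0 on day 21. They are not reads and the depth of each library is unknown. They are not divided by transcript length and do not rank genes against each other. Some markers followed the day labels: POU5F1 went from 4861 on day 0 to 5 on day 21, and the endoderm factor SOX17 was highest on day 3 at 790. AFP stood at the ceiling of the scale, 18734, from day 7, and ALB reached 4866 on day 21. Others differed in time. The endoderm factor FOXA2 was highest on day 7 at 343, and the hepatocyte gene TTR was at the ceiling from day 9. FOXA2 and GATA6 had higher late than early means, by 1.89 and 0.90 on the log2 scale, although GATA6 was highest on day 3. All 5 stromal markers looked at (COL1A1, COL3A1, LUM, DCN and PDGFRB) were higher on every day from 9 to 21 than on any day from 0 to 3. Their summed value was 198 to 356 early and 11779 to 20184 late, with LUM at 0 on all 4 early days. Of 4 blood and macrophage markers in the table, CD68, HBE1 and HBZ were higher late, while PTPRC was at 0 from day 3 to day 13 and at 65 on day 21. Their sum was 1 to 39 early and 64 to 3462 late. The part of such cells in the differences below was not tested. In bulk RNA, fewer cells of a type and less RNA per cell cannot be told apart.

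As a group, the members stood at their highest on day 5 and were lower from day 9 on. The median member value was 41 on day 0, 40 on day 1, 42 on day 2, 44 on day 3, 46 on day 5 and 42 on day 7, and then 32, 36, 34 and 34 on days 9, 11, 13 and 21. Few changed at the endoderm step. Between days 0 and 3, among the 75 members whose larger value was at least 50, 4 were at least 2-fold higher, or 5.33% against 11.1% of all genes, and 3 were at least 2-fold lower, or 4.0% against 9.07%. All fold changes refer to value + 1. The members at least 2-fold higher were ZNF571, ZNF792, ZNF428 and ZNF611, and those lower were ZNF331, ZNF787 and ZNF581. In day order, ZNF571 read 8, 11, 42, 96, 14, 18, 3, 5, 6 and 5, a peak on day 3 alone. ZNF792 read 12, 18, 70, 60, 53, 56, 24, 20, 22 and 10 and so stayed high through day 7. ZNF331, an imprinted gene, read 180, 135, 104, 70, 118, 78, 72, 116, 72 and 70, with a log2 change of -1.35 from day 0 to day 3 and a partial return on days 5 and 11.

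The larger shift came between days 3 and 13. Of 69 members past the minimum, 18 were at least 2-fold lower on day 13, or 26.1% against 15.9% of all genes, and 4 were at least 2-fold higher, or 5.8% against 16.5%. The 5 with the largest fall were ZNF571, ZNF93, ZNF738, ZNF101 and ZNF121, and 3 of these lie within 2 Mb of each other. The 4 higher on day 13 were ZNF302, ZNF160, ZNF548 and ZNF552, with log2 differences of 1.01 to 1.21. ZNF552 read 39, 35, 71, 50, 124, 98, 96, 101, 102 and 51, so that its gain was lost again by day 21.

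From day 13 to day 21 few members differed by 2-fold. ZNF154 was at least 2-fold higher, 1 of 58 members (1.72% against 8.57% of all genes), and ZNF90 and ZNF581 were at least 2-fold lower (3.45% against 9.08%). The count higher was 4 after scaling by the median of ratios and 0 with a pseudocount of 5. ZNF154 read 80, 63, 80, 86, 64, 94, 60, 59, 48 and 100 and had no steady course. Days 9 and 11, which share a medium, show how far 2 libraries lay apart without a change of inducer. Between them no member of 53 differed by 2-fold in either direction, against 1.04% of all genes higher and 0.568% lower, and the SD of the log2 differences over the 159 members was 0.44.

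Over the whole course, from day 0 to day 21, 28 of 76 members were at least 2-fold lower (36.8% against 26.4% of all genes) and 5 were at least 2-fold higher (6.58% against 23.9%). The 5 higher were ZNF558, ZNF841, ZNF528, ZNF83 and ZNF773. Of these ZNF841 read 24, 32, 28, 33, 58, 58, 30, 34, 40 and 72, and ZNF773 read 16, 24, 19, 16, 31, 30, 24, 24, 26 and 50, both highest on day 21. Values scaled by the median of ratios, which raised the all-gene median of this difference by 0.18 on the log2 scale, gave 22 lower and 9 higher.

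To use more than 1 library on each side, days 0, 1, 2 and 3 were set against days 9, 11, 13 and 21. In 30 of 95 members every early value was above every late value (31.6% against 26.7% of all genes), and in 6 every early value was below (6.32% against 21.6%). The count lower late was thus near the background, and the count higher late was under it. Zinc finger genes of the same symbol form on other chromosomes gave 32.3% and 12.9% of 155, and the other genes of chromosome 19 gave 33.6% and 14.2% of 541. The median late minus early difference on the log2 scale was -0.28 over the 159 members, -0.24 over the 199 zinc finger genes elsewhere, -0.30 over the 618 other genes of chromosome 19 and -0.10 over all genes. Scaling by the median of ratios moved the all-gene median to 0.01 and the members' median to -0.16, with 27 members higher early and 10 higher late. Leaving out day 13 also gave 10 members higher late.

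**Figure D1:**
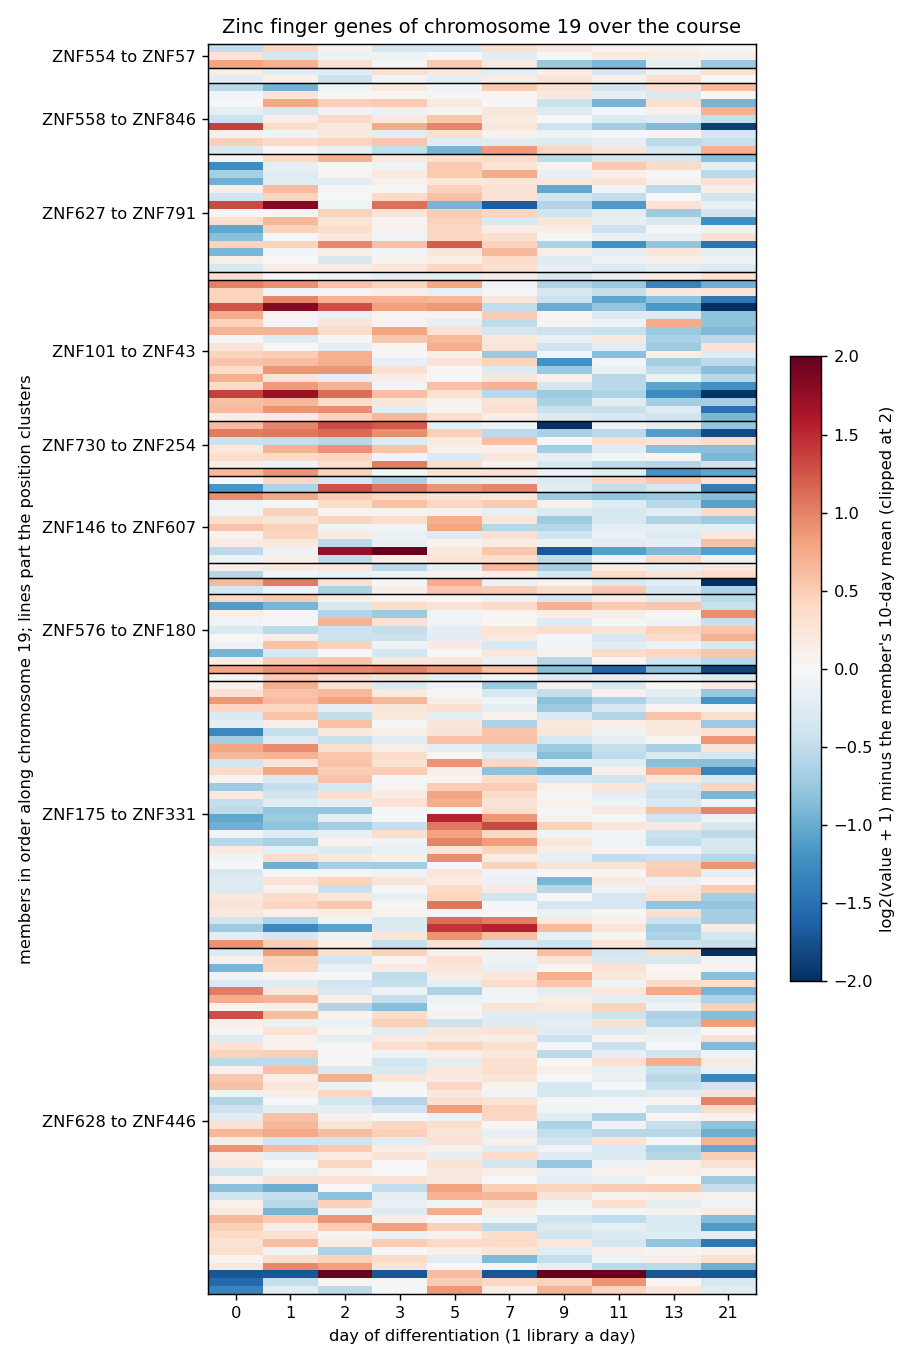
Heat map of the 159 members in order along chromosome 19 (rows; black lines part the position clusters, and clusters of at least 3 members are named) over the 10 days (columns). Colour is log2(value + 1) minus the 10-day mean of the member, from blue (lower) to red (higher), clipped at 2. Rows of ZNF101 to ZNF254 go from red on days 0 to 3 to blue on days 9 to 21, and a block of rows within ZNF175 to ZNF331 is red on days 5 and 7.

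Change differed by position along the chromosome. Members were split into clusters wherever the next member started over 1 Mb past the end of those before it. This gave 17 clusters, 9 of them with at least 3 members and 147 members in all. Positions are those of the deposited table, for which the human build listed with the samples is hg19 although the table itself names none. The cluster median of late minus early was negative in 7 of the 9 and ranged from -1.04 to 0.36. The lowest medians belonged to the neighbouring clusters ZNF101 to ZNF43, at 19.8 to 22.0 Mb, and ZNF730 to ZNF254, at 23.3 to 24.3 Mb.

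**Figure D2:**
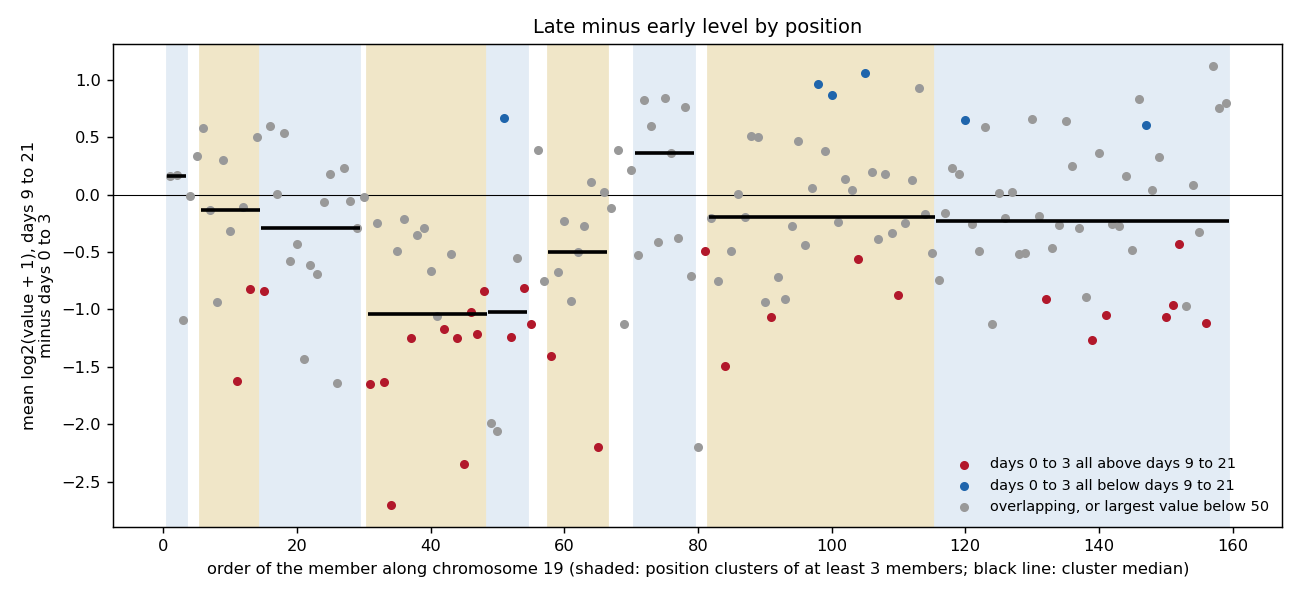
Mean log2(value + 1) over days 9, 11, 13 and 21 minus the mean over days 0, 1, 2 and 3 (y axis) for each of the 159 members in order along chromosome 19 (x axis). Shading marks the 9 clusters of at least 3 members and black lines their medians; red points are the 30 members with every early value above every late value, blue points the 6 with the reverse, and grey points all others. The medians of the clusters ZNF101 to ZNF43 and ZNF730 to ZNF254, at -1.04 and -1.03, lie under all others.

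In the cluster ZNF101 to ZNF43 all 18 members had a lower mean on the late days, against 54.3% of all genes. In 10 of the 12 that reached 50 on an early or late day the early and late values did not overlap (83.3% against 26.7% of all genes). The table holds no other gene within this span. ZNF93, whose protein binds L1 retroelements, showed the largest difference of all members. It read 90, 134, 92, 66, 68, 26, 18, 21, 16 and 5, with a late minus early difference of -2.70 on the log2 scale, and its late days were all below its lowest early day. ZNF738, at 130, 167, 109, 76, 62, 34, 30, 32, 20 and 12, followed the same course with a difference of -2.35. ZNF101 read 137, 128, 101, 92, 116, 64, 44, 40, 26 and 34, holding its level through day 5. ZNF714 read 152, 218, 217, 146, 121, 98, 70, 106, 82 and 65, and its lowest early value, 146, was above its highest late value, 106. The smallest difference in the cluster, -0.21, was that of ZNF90, which read 2166, 1556, 1890, 1642, 1386, 1108, 1640, 1490, 2638 and 902. Its early and late values overlapped, with the extremes on days 13 and 21.

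The cluster median of log2(value + 1) was 6.09, 6.28, 6.03 and 5.87 on days 0 to 3, 5.99 on day 5, 5.61 on day 7, and 4.95, 5.09, 4.75 and 4.67 on days 9 to 21. The step was therefore widest between days 7 and 9, where FGF4 and BMP2 gave way to HGF and KGF. Its median change was -0.41 over days 0 to 3, -0.87 over days 3 to 13 and -0.35 over days 13 to 21. Leaving out any 1 of the 8 libraries kept the late minus early median of the cluster between -1.19 and -0.95, and scaling gave -0.93.

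In the next cluster, ZNF730 to ZNF254, 5 of 6 members were lower on the late days (83.3% against 54.3% of all genes). The cluster median was -1.03, and 2 other genes in the span had a median of 0.41. Of the 6 members 3 reached 50, and the largest falls, -2.06 in ZNF724P and -1.99 in ZNF730, were in members that did not. Over the members with at most 20% of their transcript 50-base words in another gene the median was -0.81. ZNF675 read 38, 54, 63, 49, 35, 35, 20, 28, 18 and 18, and its late values were all below 38. ZNF254 read 86, 74, 100, 160, 98, 82, 63, 54, 52 and 59, with a peak on day 3 before its decline. ZNF91 went the other way. This gene, whose protein binds SVA and L1 elements and carries the most C2H2 repeats of the members by pattern (31), read 76, 74, 70, 86, 118, 157, 102, 130, 123 and 133. Its late values, from 102, were all above its early values, up to 86, and the difference was 0.66. It lies at 23540501 to 23578269 in the table, between ZNF724P at 23404401 to 23433162 and ZNF675 at 23835708 to 23870017. ZNF724P read 34, 35, 37, 32, 23, 11, 10, 11, 7 and 4, below the minimum of 50 on every day.

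**Figure D3:**
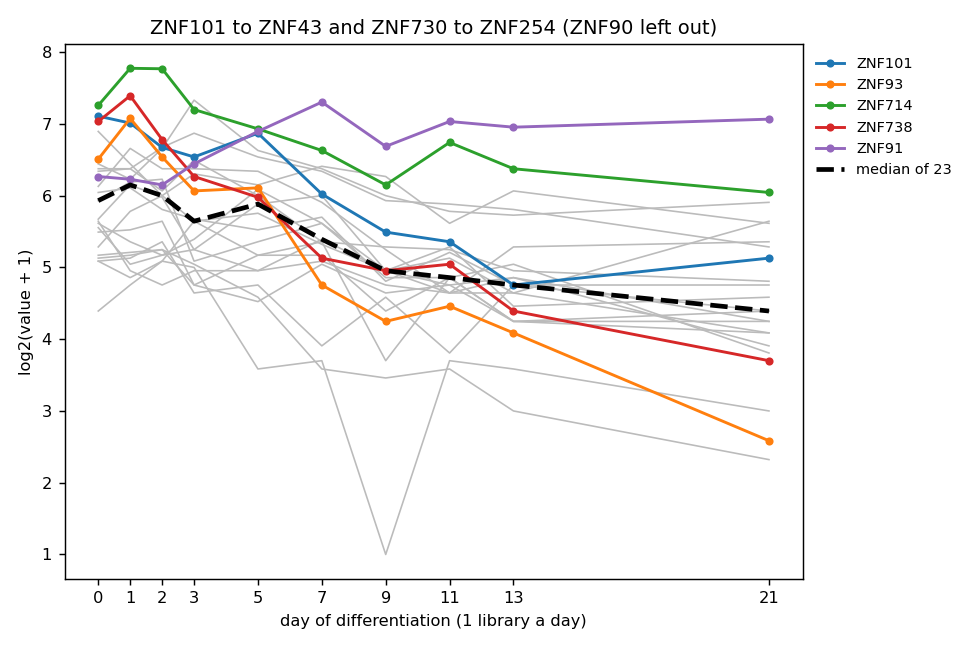
Level over the course, log2(value + 1) on the y axis against day on the x axis, of the members from ZNF101 to ZNF43 and from ZNF730 to ZNF254 (1 line per gene; ZNF90, at far higher scores, is left out). Coloured lines name 5 genes, grey lines are the others and the dashed line is the median of the 23; the median runs lower after day 5 while ZNF91 runs from 76 on day 0 to 133 on day 21.

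The first promoter family covers both of these clusters. Its 18 members had a late minus early median of -0.93, and 17 of them were lower late, against 54.3% of all genes. In 14 the highest value fell on days 0 to 3, a count that was not made over all genes. Of the other 6 members of the same clusters, ZNF101 and ZNF682 had a promoter that did not align with the family, and both were lower late. The remaining 4, ZNF506, ZNF253, ZNF738 and ZNF724P, had no promoter to align and were lower late as well. ZNF91 carries the same promoter word as ZNF93 and ZNF714 and had the opposite direction.

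Between 36.7 and 38.2 Mb, the cluster ZNF146 to ZNF607 had a median of -0.50, with 7 of 9 members lower late (77.8% against 54.3% of all genes). Of the 5 that reached 50 on an early or late day, 2 had every early value above every late value (40% against 26.7% of all genes). In the span, 5 other genes had a median of -0.27. ZNF146, also called OZF, consists almost wholly of zinc fingers, and it read 450, 398, 334, 310, 286, 272, 144, 138, 142 and 130. Every late value was under its day 7 value, and the largest drop was from day 7 to day 9. The other member past the minimum without overlap was ZNF571, described above for its peak on day 3. Its gap was narrow and near the floor, with 8 on day 0 against 6 on day 13, and it reached 50 on day 3 alone. ZNF567 and ZNF585A, which never reached 50, were also lower on every late day than on any early day. ZNF793, at 58, 60, 35, 46, 54, 57, 48, 44, 46 and 78, had a difference of 0.11.

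The clusters nearer the short-arm end differed less. ZNF558 to ZNF846, at 8.9 to 9.9 Mb, had a median of -0.13, which scaling moved to -0.02. Within it, ZNF121 read 272, 134, 118, 175, 207, 122, 78, 65, 56 and 28, with a difference of -1.62. ZNF558 read 32, 24, 44, 55, 45, 68, 58, 37, 60 and 74, and overlapped between early and late days. ZNF627 to ZNF791, at 11.7 to 12.7 Mb, had a median of -0.29 over 15 members, and -0.07 over those with at most 20% of their transcript 50-base words in another gene. ZNF788 there read 70, 101, 26, 60, 14, 8, 18, 12, 34 and 25, low from day 5 on but with day 2 under day 13. The 3 members from ZNF554 to ZNF57, at 2.8 to 2.9 Mb, never reached 50 and had a median of 0.16.

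ZNF576 to ZNF180, at 44.1 to 45.0 Mb, was the other cluster with a positive median, 0.36. Of its 9 members 5 were higher late, beside 5535 of 12125 genes. ZNF428 read 26, 30, 46, 74, 69, 76, 94, 83, 84 and 42, highest on day 9 and lower on day 21. ZNF404 read 37, 34, 22, 20, 32, 34, 37, 37, 34 and 65. ZNF45 read 34, 35, 58, 44, 34, 37, 30, 35, 34 and 26. In the 4 members that reached 50 on an early or late day, early and late values overlapped. Below that minimum, ZNF223 and ZNF229 were higher on every late day than on any early day, and ZNF180 was lower. Over the members with at most 20% of shared 50-base words the median was -0.03.

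The cluster ZNF175 to ZNF331, at 52.1 to 54.0 Mb, had its own course. Its late minus early median over 34 members was -0.20, but its median log2(value + 1) was highest on day 5, at 6.40, against 5.52, 5.67, 5.95 and 5.88 on days 0 to 3, 5.83 on day 7 and 5.55 on day 9. The median of the cluster was thus raised on day 5 and not on day 7. A count of members with both FGF4 and BMP2 days above every other day was added after this had been seen. Over the chromosome it found 14 of 99 members (14.1% against 4.16% of all genes), 10 of them in this cluster, and no member had both days below every other day, against 2.41% of all genes. Zinc finger genes elsewhere gave 10 of 157 (6.37%) and the other genes of chromosome 19 gave 11 of 546 (2.01%). The 10 were ZNF528, ZNF808, ZNF611, ZNF600, ZNF28, ZNF468, ZNF320, ZNF765, ZNF761 and ZNF813, and the other 4 were ZNF440 and ZNF791 near 12 Mb and ZNF549 and ZNF587 near 58 Mb. Some passed by a small margin. ZNF528 was at 72 on both days against 70 on day 21, and ZNF808 at 52 on day 7 against 51 on day 2. ZNF28 was at 104 on day 7 against 100 on day 3, and ZNF320 at 192 on day 5 against 187 on day 0. ZNF791 was at 96 on day 7 against 92 on day 3.

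ZNF761 had the largest difference between days 5 and 7 and the other days, and read 90, 60, 70, 123, 402, 438, 230, 178, 92 and 164. Its level on days 5 and 7 was more than 1.5-fold that of any other day and was back at 92 on day 13, near its day 0 value, before 164 on day 21. ZNF611, whose protein binds SVA elements, read 33, 41, 60, 68, 202, 128, 72, 68, 52 and 64. ZNF765, another retroelement binder, read 57, 48, 70, 60, 160, 151, 84, 78, 55 and 46. Both were at or near their early level again on day 13. ZNF600 read 35, 39, 42, 50, 144, 174, 94, 82, 78 and 55, and ZNF468 read 44, 41, 68, 62, 130, 116, 76, 62, 46 and 52. ZNF813 read 66, 60, 72, 92, 144, 118, 69, 78, 50 and 60. These 3 were named after their values had been seen, and each had its 8 other days below both FGF4 and BMP2 days.

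**Figure D4:**
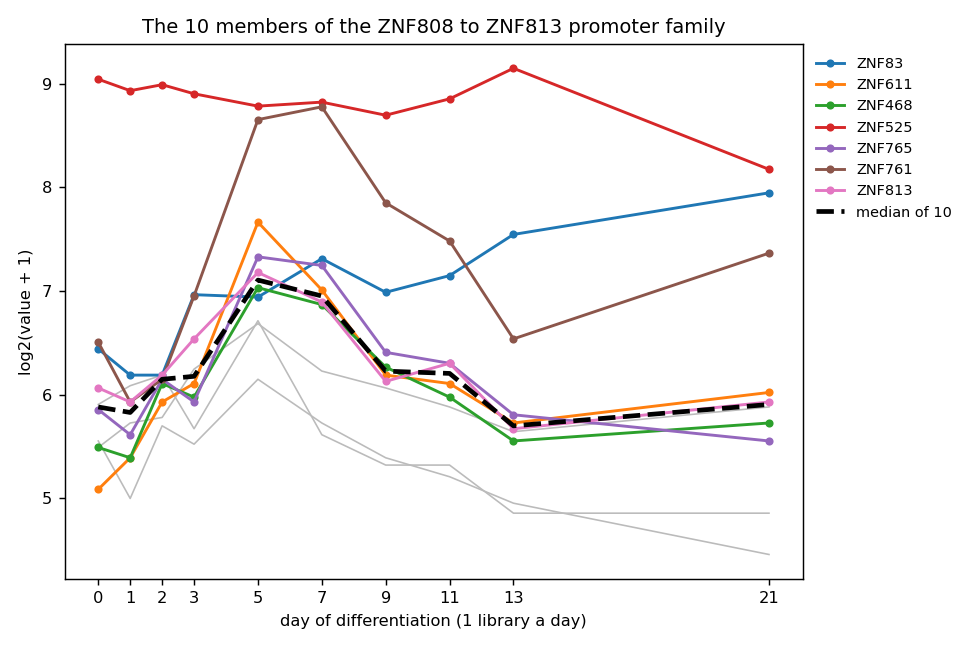
Level over the course, log2(value + 1) on the y axis against day on the x axis, of the 10 members whose promoters align from ZNF808 to ZNF813. Coloured lines name 7 genes, grey lines are ZNF808, ZNF701 and ZNF845, and the dashed line is the median of the 10; ZNF611, ZNF468, ZNF765, ZNF761 and ZNF813 are highest on days 5 and 7, ZNF83 is highest on day 21 and ZNF525 is at 527 on day 0 and 440 on day 5.

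The second promoter family lies inside this cluster. The mean of days 5 and 7 exceeded that of the other days in 9 of its 10 members, with a median difference of 0.83 on the log2 scale. The same held for 114 of all 159 members, with a median of 0.21, and for 6302 of 12125 genes, with a median of 0.02. In the family, 6 of the 10 had both days above every other, against 4.16% of all genes. Of the 18 members of the cluster whose promoter did not align with the family, 11 were higher on those days, with a median of 0.06, and ZNF528 and ZNF320 had both days above every other. The other 6 had no promoter to align, and 5 of them were higher on those days, with a median of 0.56, among them ZNF600 and ZNF28. Relative to their own 10-day mean, the members of the family had a median of -0.42, -0.49, -0.08 and 0.01 on days 0 to 3, 0.94 and 0.49 on days 5 and 7, and 0.05, 0.00, -0.41 and -0.33 on days 9 to 21. ZNF525 was the exception among the 10, at 527, 488, 508, 478, 440, 452, 414, 462, 567 and 288, with a difference of -0.04. ZNF83 shared the promoter word and was higher on days 5 and 7 by 0.20, but it read 86, 72, 72, 124, 122, 158, 126, 141, 186 and 246 and was highest on day 21.

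Genes of this cluster are close copies, and reads can be split among them. In ZNF320, 99.5% of the 50-base words of its transcript occur in another gene, so its value of 192 on day 5 and 222 on day 7 is uncertain. The shares were 13.6% for ZNF611, 11.2% for ZNF761, 10.6% for ZNF765, 11.8% for ZNF813 and 28.9% for ZNF808. Over the members with at most 20% of such words, 11 still had days 5 and 7 above every other day. Across the 157 members found in the transcript set, the share of shared words and the difference of days 5 and 7 from the other days had a Spearman rho of 0.28 over genes, which share the 10 libraries and are not independent.

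Within the same cluster other members fell early or rose late. ZNF649, also a retroelement binder, read 102, 86, 98, 88, 61, 53, 31, 36, 42 and 24, and its lowest early value was more than 2-fold its highest late value. ZNF160, which lies between ZNF816 and ZNF677, read 182, 92, 113, 111, 176, 245, 218, 218, 252 and 334, with late values all above 182 and a difference of 1.06, the largest rise of a member past the minimum. ZNF616, at 75, 84, 54, 47, 38, 32, 26, 31, 27 and 51, was highest on day 1 and overlapped between early and late days through its value on day 21.

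The last cluster, ZNF628 to ZNF446 at 56.0 to 59.0 Mb, held 44 members with a median of -0.23, of which 28 reached 50. Of these 7 had early above late values, or 25% against 26.7% of all genes, and ZNF580 and ZNF587 the reverse, or 7.14% against 21.6%. Its 13 other genes had a median of -0.04. ZNF134 read 182, 194, 176, 160, 136, 102, 82, 78, 78 and 58, and all late values were below 160. ZNF587 read 144, 138, 108, 167, 309, 302, 228, 203, 206 and 203, with its peak on day 5 and late values above all early ones, although 37.9% of its 50-base words occur in another gene. ZNF8 was listed at 0 on days 0, 1, 3, 7, 13 and 21 and at 34, 4, 26 and 28 on days 2, 5, 9 and 11, and no fold is given for it. ZNF581, at 156, 88, 60, 70, 48, 72, 65, 88, 127 and 39, had its late and early values interleaved. ZNF444 read 98, 102, 62, 52, 92, 112, 109, 131, 90 and 132, and ZNF787 read 128, 125, 84, 56, 72, 74, 84, 68, 66 and 50.

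The 5 retroelement-binding members looked at did not share a course. ZNF93 and ZNF649 were lower late, ZNF91 was higher late, and ZNF611 and ZNF765 were highest on day 5, with a late minus early median of 0.13 over the 5. Of 17 genes of the silencing machinery that acts with KRAB proteins, 14 had a lower late mean, or 82.4% against 54.3% of all genes, with a median of -0.53. In 8 of the 16 that reached 50 every early value was above every late value, or 50% against 26.7% of all genes. TRIM28, the KRAB co-repressor, read 2164, 2429, 2022, 1156, 1130, 1064, 1065, 1087, 980 and 582. The HP1 gene CBX1 read 590, 642, 668, 676, 590, 388, 262, 305, 284 and 187, and the deacetylase gene HDAC2 went from 1436 on day 0 to 256 on day 21. All late values of these 3 genes were below their early values. SETDB1 was at 102 to 144 on all days with a difference of 0.01. MPHOSPH8, of the HUSH complex, was at 78 to 96 early and 76 to 136 late, with a difference of 0.32. The remodeller gene CHD3 was at 88, 104, 234, 290, 276, 328, 364, 428, 540 and 628, and was the 1 gene of the list with all late values above the early ones.

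Features of the encoded proteins, as found by pattern, separated the members little by the late minus early difference. The KRAB-like stretch was sought with 1 short pattern, so a KRAB domain that varies from it counted as absent. A KRAB-like stretch was found in 119 of 156 members with a coding transcript, with a late minus early median of -0.29, against -0.20 in the 37 without. Early values were all above late values in 23 of the 69 of the former that reached 50 on an early or late day (33.3%) and in 7 of 25 of the latter (28%), against 26.7% of all genes. The number of C2H2 repeats, with a median of 12 and a range of 0 to 31, had a Spearman rho of 0.00 with the late minus early difference over these 156 genes. Days 5 and 7 were above every other day in 13 of 72 members with a KRAB-like stretch that reached 50 and 1 of 26 without. The counts were 10 of 44 with more than 12 repeats and 4 of 54 with 12 or fewer, against 4.16% of all genes. Of these 14 members 10 lie in ZNF175 to ZNF331, and the part of position was not tested. GC content differed by position, with median transcript GC of 37.5% in ZNF101 to ZNF43, 36.6% in ZNF730 to ZNF254, 41.3% in ZNF175 to ZNF331 and 47.0% in ZNF628 to ZNF446. Over the members it had a rho of 0.25 with the late minus early difference (n = 157), and the CG count of the promoter had a rho of 0.26 (n = 140). The values had been normalized for GC content by the authors, and the part of GC content in the differences between clusters was not tested.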

How the data were processed

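RNA-seq had been performed on 1 library a day of H1 cells. Per the study's methods and the submitters' processing notes, the authors aligned reads to the Ensembl transcriptome with Bowtie2 (2.2.0) and RSEM (1.2.17) and normalized for GC content with EDASeq. The notes list hg19 and mm10 without saying which the table's positions use. The deposited values are scores and not counts: whole numbers for 12125 genes with nearly the same distribution in each library, so depth and counting error are unknown. All 10 columns were matched to a day by name, with 0 left over.

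Differences are of log2(value + 1). A gene counted as changed at 2-fold or more with the larger value at least 50. For sets of days, a gene counted where values did not overlap and its largest was at least 50. Members were parted into clusters at gaps over 1 Mb. The rule for named genes took the 5 members with the largest rise and the 5 with the largest fall in each comparison of 2 days except days 9 and 11, the extreme members of each cluster, the 5 with the highest mean and the listed silencing partners and retroelement binders. The members and lists were chosen with earlier results of these data known. The days 5 and 7 count, the promoter families and the 50-base word limit were added after the values had been seen.

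Promoters came from RefSeq and were linked by local alignment at a score of at least 120. The planned protein table was not used here, so repeats, KRAB stretches and GC content were computed from the longest reading frames and transcripts of GENCODE, where 157 of 159 members were found. Python 3.11.15, numpy 2.4.6, pandas 2.3.3, Biopython 1.88 and matplotlib 3.10.9 were used. Tested on simulated data for day 0 against day 21, the count found 200 of 200 genes changed 4-fold among 12125 and 0 unchanged genes. The simulated noise was smaller than the members' day 9 to day 11 SD of 0.44. Changes were planted only in genes of higher mean score. The simulation therefore checks the counting code and does not measure the error of these libraries.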

Additional observations from a re-analysis of the deposited data

How the results depend on the processing

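Of 193 alternative values, 168 stayed within the SD of the members' day 9 to day 11 differences or, for counts, within 1.5 times, 24 moved further and 1 changed sign. Without a filter on low values, 11 members were higher from day 0 to day 3, 4 higher and 10 lower from day 13 to day 21, and 14 higher and 49 lower from day 0 to day 21. With a minimum of 100, 0 were higher from day 0 to day 3, 2 higher and 6 lower from day 3 to day 13, 1 higher and 15 lower from day 0 to day 21, and 15 had days 0 to 3 above days 9 to 21. At 4-fold, 2 were higher and 0 lower from day 0 to day 3, 0 higher and 1 lower from day 3 to day 13, 0 higher and 0 lower from day 13 to day 21, and 0 higher and 6 lower from day 0 to day 21. A pseudocount of 5 left 0 higher from day 13 to day 21. Scaling by the median of ratios gave 4 higher from day 13 to day 21, 9 higher from day 0 to day 21 and 10 with days 0 to 3 below days 9 to 21. Leaving out 1 library gave 7 to 10 such members, with 10 without day 13, and 30 to 35 with the reverse. The median of ZNF576 to ZNF180 went from 0.36 to -0.026 over members with at most 20% of shared 50-base words. The filters and folds count fewer or more genes by construction, and for the other changes the cause was not tested. Clusters parted at 0.5 or 2 Mb were also computed. No paired analysis was possible because each day has 1 library. Depth is unknown, and 60 members never reached 50.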

Other observations

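Chromosome 19 also carries zinc finger genes under other names, of which 10 in the table were looked at. ZIK1, which lies within the span of ZNF628 to ZNF446, read 125, 135, 131, 84, 70, 63, 47, 44, 46 and 31, and its late values were all below its early ones. KLF16, a member of the Krüppel-like factor family, read 101, 116, 110, 92, 66, 96, 62, 64, 28 and 47, and ZSCAN18, with a SCAN domain, read 126, 112, 96, 122, 128, 72, 64, 66, 76 and 92. Both were also lower on every late day than on any early day. ZFP36, which encodes the mRNA decay factor tristetraprolin, is no C2H2 gene, and its values of 26, 90, 45, 66, 46, 162, 76, 71, 59 and 180 overlapped. The other 6 (ZFP14, ZFP30, ZFP28, ZFP82, ZBTB45 and ZBTB7A) never went above 51 and overlapped as well.

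Zinc finger genes of the same symbol form on other chromosomes were counted where a chromosome held at least 10 of them, beside 26.7% early above late and 21.6% the reverse over all genes. On chromosome 1 the late minus early median was -0.67 over 18 genes, with 7 early above late and 0 the reverse among 15 past the minimum of 50. On chromosome 16 it was -0.33 over 27 genes, with 8 and 0 of 22, and on chromosome 7 it was -0.22 over 26 genes, with 8 and 2 of 21. On chromosome 3 it was -0.36 over 13 genes, with 1 and 2 of 9, on chromosome 12 it was -0.02 over 10 genes, with 1 and 2 of 8, and on chromosome 8 it was -0.03 over 12 genes, with 1 and 3 of 7. Nearness on chromosome 19 went with little more likeness of course than distance did. The median Pearson r of a pair over the 10 days was 0.18 for the 190 pairs of members within 0.1 Mb and 0.13 for the 9344 pairs over 5 Mb apart, where pairs share genes and the libraries.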
